A study of Mus musculus with 8 samples.

Results

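Tubulins and stathmins were followed here in 8 long-read libraries from mouse embryonic stem cells taken before and after treatment with retinoic acid (RA). The 10 members are the alpha-tubulin genes Tuba1a, Tuba1b and Tuba1c, the beta-tubulin genes Tubb2a, Tubb2b, Tubb3 and Tubb5, and the stathmin genes Stmn1, Stmn2 and Stmn3, out of 24421 genes in the count tables. They were chosen by gene family, and the list was drawn up with Day4 against Undiff values of these same libraries in view, in which Tubb3 and Stmn2 were lower at Day4. Their state values are therefore given as a description, and criteria for differentially expressed genes (DEGs) are applied to them only to set their count beside that of all genes. Tests are kept for the platforms and for genes outside the list. Those genes were listed by role, but also with earlier results of these data known, and their state p-values are to be read with that limit.

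The cells were R1 mouse embryonic stem cells, a single line, and carried no genetic change in any group. The Undiff group was untreated, and the Day4 group was embryoid bodies (cell aggregates in suspension) that received RA for 4 days, at 2 µM by the series text and the methods, while the treatment field of the samples gives a millimolar dose. The labels call every sample embryoid bodies, whereas the methods describe Undiff as stem cells kept in growth medium, so the form of the untreated cells is uncertain. By the methods the Day4 cells had also been without leukaemia inhibitory factor and in suspension for 4 days before RA. No untreated culture of that kind and age is among the libraries, so RA, the loss of this factor, aggregation and time in culture cannot be told apart. RNA of each state was read on 2 platforms, ONT Direct RNA, in which native polyadenylated RNA passes through the pore (500 ng input), and ONT cDNA, in which it is first copied and amplified (50 ng input), with 2 replicates for each state and platform. By the methods the replicates were cultured and treated apart from each other.

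Microtubules are hollow polymers of alpha- and beta-tubulin dimers, and vertebrates carry several genes, called isotypes, for each subunit that differ mostly in the last codons, where the acidic tail that faces motors and modifying enzymes is encoded. Stathmins are small phosphoproteins that bind tubulin dimers and limit polymerization: stathmin 1 is found in dividing cells of many kinds, and stathmins 2 and 3 are best known from neurons, where stathmin 2 sits on membranes of growing axons. Beta III tubulin, the product of Tubb3, is widely used as a marker of young neurons. Tubulin mRNA is also under autoregulation: when free dimers are plentiful, the nascent amino terminus of tubulin is recognized on the ribosome with the help of the protein from Ttc5, and the mRNA is degraded.

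Between 283461 and 907489 Direct RNA reads and between 948657 and 2088592 cDNA reads per library were counted on genes, and the members took 0.567 to 1.02% of them. Levels are given as CPM, reads per 1000000 reads on genes, and 3 reads, taken as the floor of a library, equal 3.31 to 10.6 CPM in Direct RNA and 1.44 to 3.16 CPM in cDNA. The states were checked against marker lists. The 8 pluripotency markers summed to 11482 to 24601 CPM in the Undiff libraries and to 84.2 to 944 CPM at Day4, and all 8 were lower at Day4 on both platforms by the DEG criteria used below. Markers of neurons were lower in sum: the 15 genes summed to 86.1 and 196 CPM in Undiff and 56.4 and 65.1 CPM at Day4 in Direct RNA, and to 70.6 and 105 CPM against 55.4 and 57.3 CPM in cDNA. The sums rest on few genes, and 10 of the list had a negative and 4 a positive log2 fold change in Direct RNA, and 8 and 6 in cDNA, some on very few reads. Ina and Mapt met the DEG criteria as lower at Day4 in cDNA, Ina with 31.6 and 93.7 CPM in Direct RNA Undiff, 0 and 13.6 CPM at Day4, and 7.38 and 20.1 CPM against 1.52 and 0.963 CPM in cDNA, while Dcx had no reads in any Undiff library and 0 to 6 at Day4. Neural progenitor markers (7 genes) summed to at most 28.7 CPM in Undiff and to 52.9 and 93.6 CPM at Day4 in Direct RNA, and to 3.16 and 7.18 CPM against 30.3 and 38.0 CPM in cDNA. Of these Direct RNA Day4 sums Nes alone made up 38.8 and 54.2 CPM. The DEG criteria were met by 0 of the 7 genes in Direct RNA and by 1, Fabp7, in cDNA. Endoderm markers (6 genes) summed to 11.5 and 13.2 CPM against 639 and 1002 CPM in Direct RNA, and to 1.05 and 4.31 CPM against 132 and 190 CPM in cDNA. Mesenchyme markers (5 genes) went from 5.51 and 11.5 CPM to 1603 and 3112 CPM in Direct RNA, and from 1.44 and 5.27 CPM to 259 and 360 CPM in cDNA. Proliferation markers (5 genes) were at 1262 and 1472 CPM in Undiff against 900 and 956 CPM at Day4 in Direct RNA, and at 1387 and 1650 CPM against 888 and 1330 CPM in cDNA. Of these only Ccnb1 met the DEG criteria, in cDNA, and Mki67 went the other way, with log2 fold changes of 0.15 in Direct RNA and 1.31 in cDNA. The part of these shifts in the member values was not tested, and in bulk RNA fewer cells of a type and less RNA per cell cannot be told apart.

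The alpha-tubulin genes lie together on chromosome 15 of mm10, Tuba1b at chr15:98931425-98934565 and Tuba1a at chr15:98949837-98953703 on the minus strand, and Tuba1c at chr15:99029891-99038110 on the plus strand (GENCODE vM21), each with 4 exons in its longest coding transcript. Their coding sequences are nearly the same, with 98.3% identity between Tuba1a and Tuba1b, 97.9% between Tuba1b and Tuba1c and 97.1% between Tuba1a and Tuba1c. Between 11 and 12 other annotated genes had transcripts at least 90% identical to each alpha member over at least 40% of its length, 8 or 9 of them pseudogenes, so a read may have been assigned to a sister gene or discarded, and the split between the 3 genes is uncertain to that extent. The reads dropped for low alignment quality were 20.4 to 28.0% of aligned reads per library, and their origin is not recorded in the tables.

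Tuba1b, the most abundant alpha member by reads in every group, was at 2391 and 2593 CPM in the Direct RNA Undiff libraries and at 1432 and 1772 CPM at Day4. The groups did not overlap in Direct RNA, with a log2 fold change of -0.73 (SE 0.25). In cDNA it was at 2605 and 4411 CPM in Undiff and 2276 and 3382 CPM at Day4, and these groups overlapped (log2 fold change -0.63, SE 0.38). Tuba1a, an isotype prominent in developing neurons but expressed in many cells, was at 979 and 927 CPM in Direct RNA Undiff and 826 and 1396 CPM at Day4, so that the Day4 replicates lay on both sides of the Undiff ones. In cDNA, Tuba1a was at 908 and 919 CPM in Undiff and at 1554 and 1646 CPM at Day4, 1.75-fold higher in mean CPM with no overlap. The fitted log2 fold changes were 0.13 (SE 0.30) in Direct RNA and 0.48 (SE 0.35) in cDNA. Tuba1c, a minor isotype, was at 517 and 788 CPM in Direct RNA Undiff against 169 and 260 CPM at Day4, 3.04-fold lower in mean CPM. In cDNA it was at 157 and 339 CPM against 114 and 121 CPM, 2.11-fold lower, and the groups did not overlap on either platform. Tuba1c had the lowest log2 fold change of the alpha members on both platforms, -1.67 (SE 0.36) in Direct RNA and -1.35 (SE 0.44) in cDNA, and without the second cDNA Undiff library the cDNA value was -0.81.

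**Figure D1:**
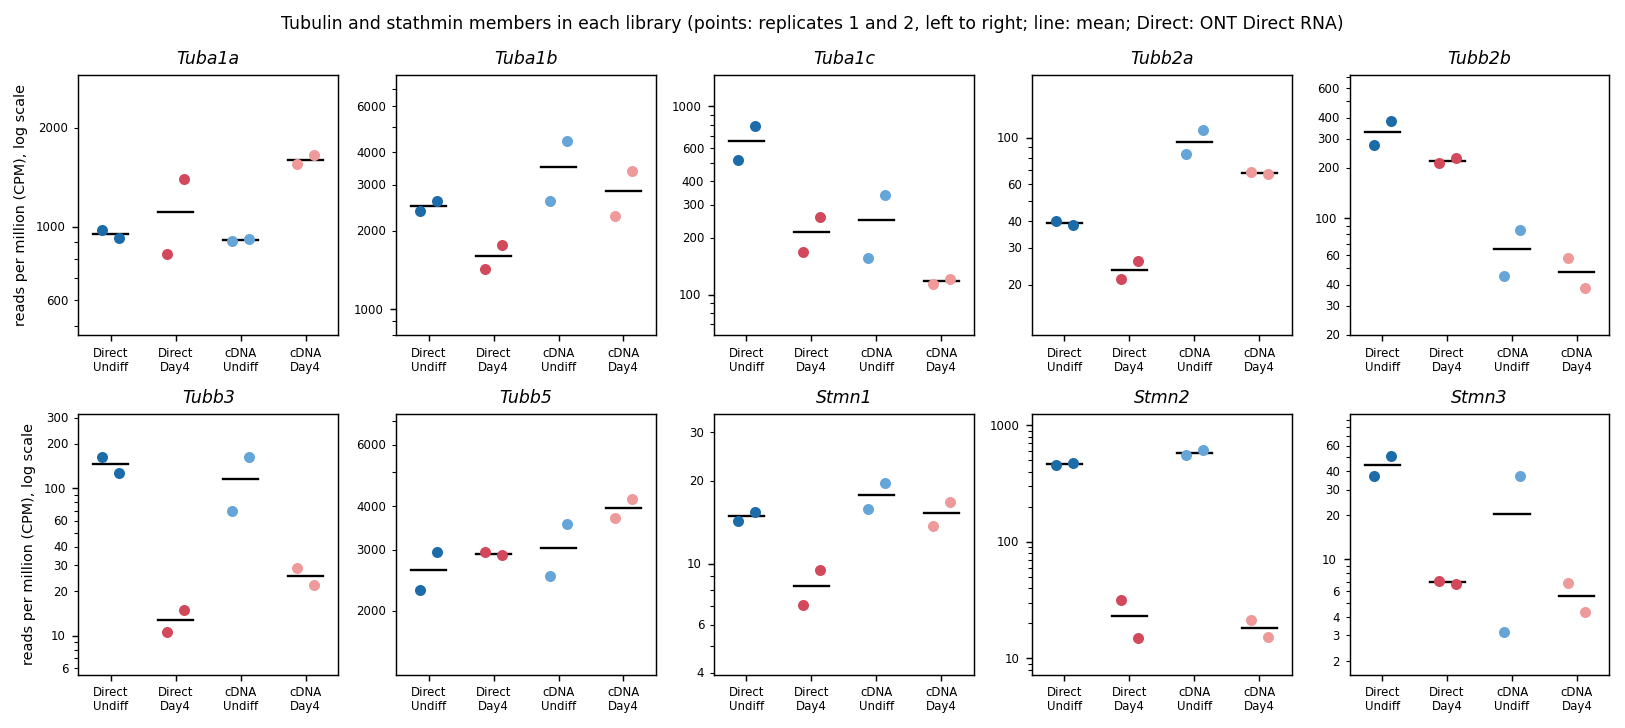
Level of each member in each of the 8 libraries, in CPM on a log axis that differs between panels, by platform and state, with 2 points per group and a line at the mean. Stmn2 and Tubb3 lie lower at Day4 in both replicates of both platforms, Tuba1a and Tubb5 do not, and the cDNA Undiff replicates of Stmn3 are far apart, at 3.16 and 37.3 CPM.

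The beta-tubulin genes are spread over the genome: Tubb5 at chr17:35833921-35838306 and Tubb2a and Tubb2b at chr13:34074274-34078007 and chr13:34126748-34130466 lie on the minus strand, and Tubb3 at chr8:123411424-123422015 on the plus strand. Tubb2a and Tubb2b share 96.5% of coding bases, and the other pairs of beta members 81.4 to 84.6%. The last 60 coding bases and the stop codon are printed because they encode the isotype tail, with capitals at bases that differ from Tubb5 in an alignment of the full coding sequences or have no counterpart in it (each in the last exon and shown 5′ to 3′ on the gene's strand, chr17:35834982-35835044 for Tubb5, chr13:34074468-34074530 for Tubb2a, chr13:34127471-34127533 for Tubb2b and chr8:123421620-123421682 for Tubb3).
Tubb5: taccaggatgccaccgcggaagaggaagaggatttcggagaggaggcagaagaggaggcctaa
Tubb2a: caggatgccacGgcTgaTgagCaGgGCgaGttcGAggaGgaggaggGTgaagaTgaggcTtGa
Tubb2b: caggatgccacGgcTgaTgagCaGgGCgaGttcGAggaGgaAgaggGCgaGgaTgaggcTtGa
Tubb3: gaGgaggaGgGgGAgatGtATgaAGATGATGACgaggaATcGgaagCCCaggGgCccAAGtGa
Tubb3 differed from Tubb5 at 30 of these 63 bases, Tubb2b at 18 and Tubb2a at 16. The starts of the coding sequences are shown with the first 4 codons in capitals, since these encode the amino-terminal residues read in autoregulation (chr8:123411606-123411635 for Tubb3 and chr17:35838024-35838053 for Tubb5, both in exon 1, and chr15:98933169-98934335 for Tuba1b, a span that holds an intron).
Tubb3: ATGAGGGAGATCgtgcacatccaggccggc
Tubb5: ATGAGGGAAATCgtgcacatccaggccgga
Tuba1b: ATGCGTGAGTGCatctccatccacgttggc
No other annotated transcript reached the 90% identity over 40% of the length for Tubb3 or Tubb5, whereas Tubb2a and Tubb2b match each other and a pseudogene, Tubb2a-ps2, that had 1 read in the 8 libraries together.

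Tubb5, the broadly expressed beta isotype of dividing cells, was at 2302 and 2949 CPM in Direct RNA Undiff and 2949 and 2896 CPM at Day4, and at 2518 and 3556 CPM against 3696 and 4200 CPM in cDNA. The groups overlapped in Direct RNA and not in cDNA, with log2 fold changes of 0.04 (SE 0.25) and 0.06 (SE 0.36). Without the first Undiff library the sign turned on each platform, to -0.25 in Direct RNA and -0.18 in cDNA.

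Tubb3 was the beta member with the lowest Day4 level relative to Undiff. Direct RNA held 57 and 115 Tubb3 reads in Undiff, 164 and 127 CPM, and 3 and 11 reads at Day4, 10.6 (95% Wilson interval 3.60 to 31.1) and 14.9 CPM, an 11.4-fold difference in mean CPM. In cDNA it was at 69.6 and 162 CPM in Undiff (66 and 339 reads) and 28.8 and 22.1 CPM at Day4 (38 and 46 reads), a 4.55-fold difference. Neither platform showed overlap between the states, the log2 fold changes were -3.37 (SE 0.61) in Direct RNA and -2.42 (SE 0.53) in cDNA, and without the second cDNA Undiff library the latter was -1.76.

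Tubb2a and Tubb2b are a close pair, both expressed in the nervous system. Tubb2a was at 40.2 and 38.6 CPM in Direct RNA Undiff against 21.2 and 25.8 CPM at Day4, and at 83.3 and 108 CPM against 68.3 and 66.9 CPM in cDNA. It was thus lower in both Day4 replicates on each platform, by log2 -0.77 (SE 0.74) and -0.80 (SE 0.45). Tubb2b was at 273 and 380 CPM in Direct RNA Undiff against 215 and 228 CPM at Day4 (log2 fold change -0.67, SE 0.36), and at 45.3 and 84.7 CPM against 57.7 and 38.0 CPM in cDNA (log2 fold change -0.72, SE 0.53), where the states overlapped.

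The stathmin genes are Stmn2 at chr3:8509360-8561606 and Stmn1 at chr4:134468320-134473843 on the plus strand and Stmn3 at chr2:181306459-181314500 on the minus strand, each with 5 exons, and Stmn2 and Stmn3 share 73.5% of aligned coding bases. Stmn2 had the most counted reads of the stathmins in the undifferentiated cells. It was at 456 and 477 CPM in Direct RNA Undiff (159 and 433 reads) and 31.8 and 14.9 CPM at Day4 (9 and 11 reads), with group means of 467 ± 14.7 and 23.3 ± 11.9 CPM. In cDNA it was at 551 and 612 CPM (523 and 1278 reads) and 21.2 and 15.4 CPM (28 and 32 reads), 31.7-fold lower. The states were far apart on both platforms and the replicates close together in Undiff, with log2 fold changes of -4.47 (SE 0.46) and -5.22 (SE 0.43), the lowest among the members. Without the second Day4 library the Direct RNA value was -3.83. Among all genes of the undifferentiated cells Stmn2 ranked 318 by CPM in Direct RNA and 314 in cDNA, and at Day4 it ranked 7327 and 5680.

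Stmn3 was at 37.3 and 50.7 CPM in Direct RNA Undiff (13 and 46 reads) and at 7.06 (interval 1.93 to 25.7) and 6.78 CPM at Day4 (2 and 5 reads), with no overlap and a log2 fold change of -2.51 (SE 0.87). The cDNA replicates of Undiff gave 3 and 78 reads, 3.16 (interval 1.08 to 9.30) and 37.3 CPM, against 9 reads in each Day4 library, 6.83 and 4.33 CPM. The cDNA log2 fold change of -1.95 (SE 0.91) rests on the second Undiff library, since without it the value was 0.31. Stmn1 was low throughout, at 14.3 and 15.4 CPM in Direct RNA Undiff and 7.06 and 9.49 CPM at Day4, and at 15.8 and 19.6 CPM against 13.7 and 16.8 CPM in cDNA, with only 2 to 41 reads per library. The fitted changes were -0.78 (SE 1.07) and -0.52 (SE 0.69). A processed pseudogene, Gm11223, is 99.8% identical to Stmn1 over 42.5% of its transcript. Whether reads of Stmn1 were lost to this copy was not tested.

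The Direct RNA DEG criteria (DESeq2 adjusted p of at most 0.05, absolute log2 fold change of at least 1, mean of at least 5 normalised reads) were met by 4 of the 10 members lower at Day4, Tuba1c, Tubb3, Stmn2 and Stmn3, and by 0 higher, beside 7.67% of the 9646 genes of that mean lower and 9.54% higher. In cDNA they were met by 3 members lower, Tuba1c, Tubb3 and Stmn2, and 0 higher, beside 9.24% of 10271 genes lower and 8.69% higher. All 10 members reached the minimum mean on both platforms, and since the list was drawn up with these values in view, nothing is read from the counts. Of the members, 8 had a negative log2 fold change on each platform, and their median was -0.77 in Direct RNA and -0.76 in cDNA, beside 0.03 and 0.00 over all genes of that mean. Scaling to library totals instead of DESeq2 size factors moved the median of all genes by 0.10 in Direct RNA and 0.31 in cDNA, and left Stmn3 in Direct RNA and Tuba1c in cDNA outside the criteria. The Direct RNA call of Stmn3 was lost without any one of the 4 libraries. Without the second Direct RNA Undiff library 2 members remained, Tubb3 and Stmn2, and in cDNA Stmn2 alone remained without the second Undiff library and likewise without the second Day4 library. A minimum of 10 reads in every library left Tuba1c alone in Direct RNA, a filter that by its construction removes Tubb3, Stmn2 and Stmn3, which had 3, 9 and 2 reads in the first Day4 library.

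**Figure D2:**
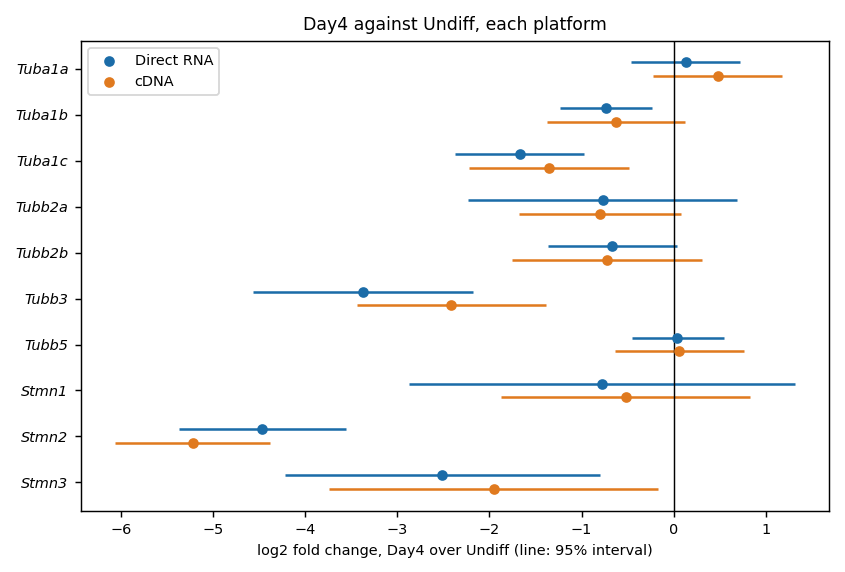
Fitted log2 fold change of each member, Day4 over Undiff, with its 95% interval (1.96 SE on each side), for Direct RNA (blue) and cDNA (orange). Stmn2 lies at -4.47 and -5.22 and Tubb3 at -3.37 and -2.42, while Tuba1a and Tubb5 lie at or above 0.

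Shares among the members of a class do not depend on how libraries are scaled. Among the reads of the 3 alpha members Tuba1a took 25.2 and 21.5% in the Direct RNA Undiff libraries and 34.0 and 40.7% at Day4, and 24.7 and 16.2% against 39.4 and 32.0% in cDNA. Every Day4 library was thus above every Undiff library of its platform. The share of Tuba1c went the other way, from a mean of 15.8% ± 3.53 (SD, n = 2) to 7.28% ± 0.435 with Direct RNA, and from 5.13% ± 1.20 to 2.62% ± 0.375 with cDNA. The share of Tuba1b was 60.9% ± 0.938 in Undiff and 55.3% ± 5.18 at Day4 with Direct RNA, and 74.4% ± 4.83 and 61.7% ± 5.63 with cDNA. Among the members, Tuba1a thus held more and Tuba1c less at Day4, with no overlap for any of the 3 genes. Shares of one class add up to the whole, so these orders are not independent, and with n = 2 a lack of overlap is easily met. Counted over all 8 alpha-tubulin genes of the lists, the other 5 included (a choice made after seeing the data), the order held for Tuba1a and Tuba1c in every library, while the Direct RNA share of Tuba1b overlapped, at 55.8 and 56.6% in Undiff and 58.7 and 51.1% at Day4.

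Among the reads of the 4 beta members Tubb5 took 83.6% ± 1.09 in Direct RNA Undiff and 91.9% ± 0.535 at Day4, and 91.8% ± 1.26 and 96.5% ± 0.765 in cDNA. For Tubb3 the share was 4.76% ± 1.60 in Undiff and 0.401% ± 0.0991 at Day4 with Direct RNA, and 3.36% ± 1.12 and 0.630% ± 0.167 with cDNA. Each of Tubb2a, Tubb2b and Tubb3 had a lower share in every Day4 library than in any Undiff library of its platform. As shares of one class, these orders and that of Tubb5 are not independent. The 4 members are not the entire beta class, since Tubb4b was at 1271 and 1336 CPM in Direct RNA Undiff. Over all 8 beta-tubulin genes of the lists Tubb5 took 54.7 and 59.2% in Direct RNA Undiff and 81.0 and 76.4% at Day4, and 86.2 and 85.4% against 89.4 and 91.9% in cDNA, and Tubb2a, Tubb2b and Tubb3 again had lower shares in every Day4 library. Each long read was taken as 1 molecule whatever the length of its gene, so shares are given per read. Divided by the length of the longest transcript, which such counts do not call for, Tubb5 held 79.6% of the 4 members in Direct RNA Undiff and 88.5% in cDNA Undiff.

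Among the reads of the 3 stathmin members Stmn2 took 88.8% ± 1.41 in Direct RNA Undiff and 94.1% ± 3.67 in cDNA Undiff, and 58.5% ± 15.1 and 46.5% ± 6.23 at Day4. Stmn1, whose own CPM was not higher at Day4, took 2.83% ± 0.0105 and 2.85% ± 0.115 in Undiff and 22.9% ± 10.6 and 39.4% ± 9.42 at Day4. Divided by the length of the longest transcript, the mean Day4 shares were 32.3% for Stmn2 and 38.2% for Stmn1 in Direct RNA. In cDNA they were 21.7 and 58.5%, so that the order of these means turned on both platforms. The Day4 shares rest on 2 to 35 reads per gene and library, and whether Stmn1 lost reads to a copy of its sequence, described above, was not tested.

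**Figure D3:**
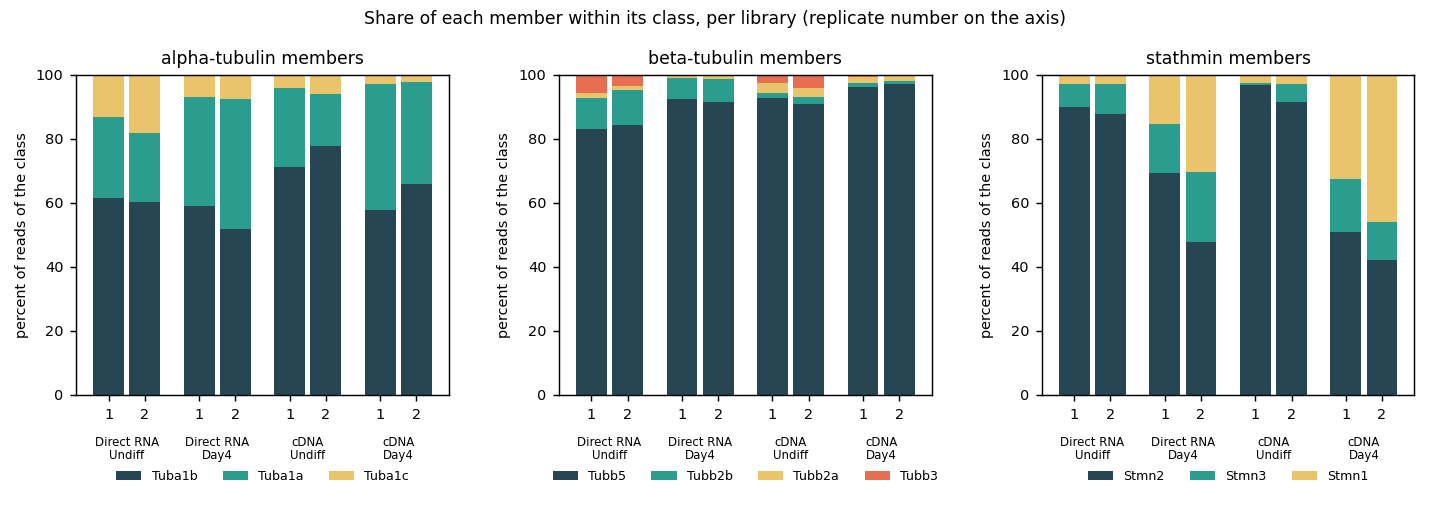
Share of each member in the reads of the listed members of its class (alpha-tubulin, beta-tubulin, stathmin), in percent, as one stacked bar for each library grouped by platform and state. Among these members Tuba1a takes a larger share of alpha reads at Day4, Tubb5 a larger share of beta reads, and Stmn2 a smaller share of stathmin reads, in every library of both platforms.

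Summed over its members, the alpha class was at 3886 and 4307 CPM in Direct RNA Undiff and 2427 and 3429 CPM at Day4, and at 3669 and 5668 CPM against 3943 and 5149 CPM in cDNA, where the states overlapped. The beta members were at 2778 and 3494 CPM against 3196 and 3164 CPM in Direct RNA, and at 2716 and 3910 CPM against 3851 and 4327 CPM in cDNA, with overlap on both platforms. This sum leaves out Tubb4b, at 1271 and 1336 CPM in Direct RNA Undiff and 250 and 415 CPM at Day4. The 7 tubulin members together were at 6664 and 7802 CPM in Direct RNA Undiff and 5623 and 6593 CPM at Day4, lower at Day4 with no overlap, and at 6386 and 9579 CPM against 7794 and 9476 CPM in cDNA, where the states overlapped. With DESeq2 size factors in place of library totals the order of the cDNA group means turned, from 7982 in Undiff and 8635 at Day4 to 10925 and 9277 for all 7, and from 3313 and 4089 to 4599 and 4465 for the beta class, and the Direct RNA beta means turned from 3136 and 3180 to 2416 and 2239. The stathmin class went from 508 and 543 CPM to 45.9 and 31.2 CPM in Direct RNA and from 570 and 669 CPM to 41.7 and 36.6 CPM in cDNA. The ratio of reads of the beta members to those of the alpha members was 0.715 and 0.811 in Direct RNA Undiff and 1.32 and 0.923 at Day4, and 0.740 and 0.690 against 0.977 and 0.840 in cDNA, higher at Day4 in every library. Over all 16 alpha- and beta-tubulin genes of the lists it was 0.983 and 1.09 in Direct RNA Undiff and 1.49 and 1.09 at Day4, so that the second Day4 library was level with an Undiff one, and 0.787 and 0.731 against 1.05 and 0.884 in cDNA. Summed, these 16 genes were at 8489 and 9567 CPM in Direct RNA Undiff and 6082 and 7262 CPM at Day4, with no overlap. In cDNA they were at 6630 and 9864 CPM against 8079 and 9733 CPM, where the states overlapped.

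**Figure D4:**
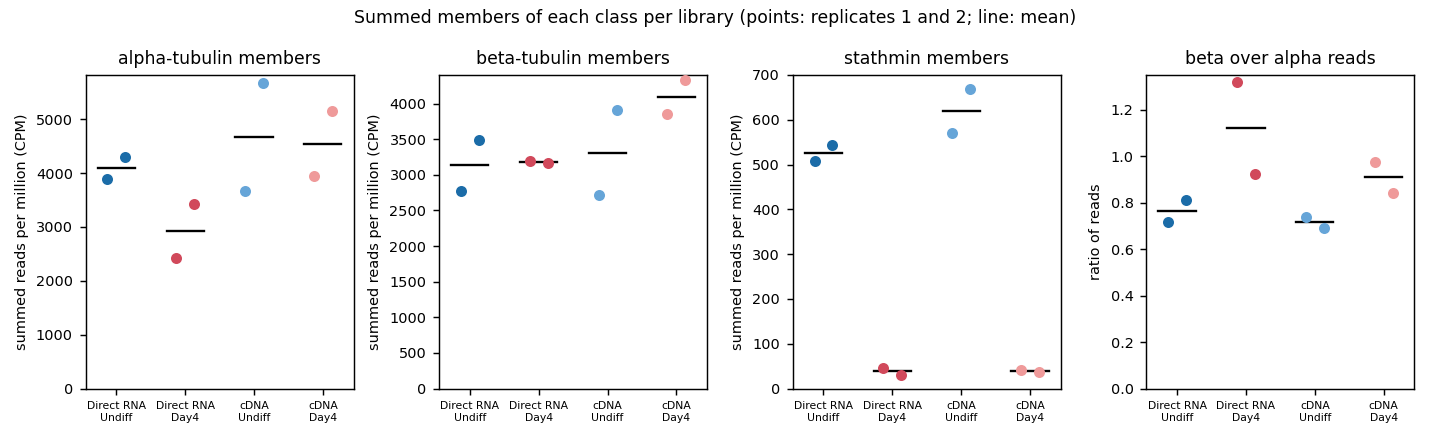
Summed CPM of the alpha-tubulin, beta-tubulin and stathmin members, and the ratio of beta to alpha member reads, in each library by platform and state, with a line at the mean of 2 replicates and axes that start at 0. The stathmin sum is 526 and 620 CPM on average in Undiff and 38.5 and 39.2 CPM at Day4, and of the tubulin sums the alpha sum in Direct RNA differs most, with 4097 CPM in Undiff and 2928 CPM at Day4.

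The platforms were then compared with state as a term in the DESeq2 fit (4 libraries each), a contrast that played no part in the choice of members. By the same criteria 4 of the 10 members were higher in cDNA and 1 lower, beside 24.7% of 10426 genes higher and 26.6% lower, so that a call between platforms is common among all genes. Tubb2a was at 21.2 to 40.2 CPM in the Direct RNA libraries and 66.9 to 108 CPM in cDNA, and Tubb2b at 215 to 380 CPM in Direct RNA and 38.0 to 84.7 CPM in cDNA. These 2 genes, 96.5% identical in coding sequence and 69.2% over their transcripts, differed in opposite directions and without overlap, with log2 differences of cDNA over Direct RNA of 2.10 (SE 0.28, DESeq2 adjusted p = 7.7e-13) for Tubb2a and -1.50 (SE 0.28, DESeq2 adjusted p = 4.1e-07) for Tubb2b. In cDNA Tubb2a held the larger share of beta member reads in Undiff, 2.91% ± 0.220 against 1.92% ± 0.353 for Tubb2b, and in Direct RNA the smaller, 1.28% ± 0.242 against 10.3% ± 0.754. Per kb the order was the same, with 4.62 against 2.24% in cDNA and 2.00 against 12.0% in Direct RNA.

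The other members called higher in cDNA were Tuba1b (1.37, SE 0.18, DESeq2 adjusted p = 2.0e-12), Tubb5 (1.06, SE 0.15, DESeq2 adjusted p = 1.3e-10) and Stmn1 (1.20, SE 0.44, DESeq2 adjusted p = 0.0203). Their size depended on the scaling. Relative to library totals the median of all genes was -0.72 and not -0.02, a shift of -0.71, and on that scale the differences were 0.65 for Tuba1b, 0.32 for Tubb5 and 0.49 for Stmn1, none of them called. With at least 10 reads in every library Tuba1b was at 0.97 and Tubb5 at 0.65, neither called, and Tubb2b alone kept its call, Tubb2a and Stmn1 being removed by that filter. With library totals Tuba1c was called lower in cDNA, at -1.13 in place of -0.42 (SE 0.28). Tubb2a and Tubb2b were called on both scales, at 1.36 and -2.25 with library totals. Tuba1a (0.97, adjusted p = 3.6e-05), Stmn2 (0.93, adjusted p = 0.00492) and Tubb3 (0.88, adjusted p = 0.0438) passed the adjusted p of DESeq2 below a log2 difference of 1. For Tubb3 the ratio of mean CPM was 0.896, below 1, so its direction was not settled. Stmn3 differed by -0.07 (SE 0.61, adjusted p = 0.992), with an interval of -1.26 to 1.12. The call of Tubb5 was lost without the first Direct RNA Undiff library (0.96), and that of Stmn1 in each omission of 1 library except the first cDNA Undiff library.

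**Figure D5:**
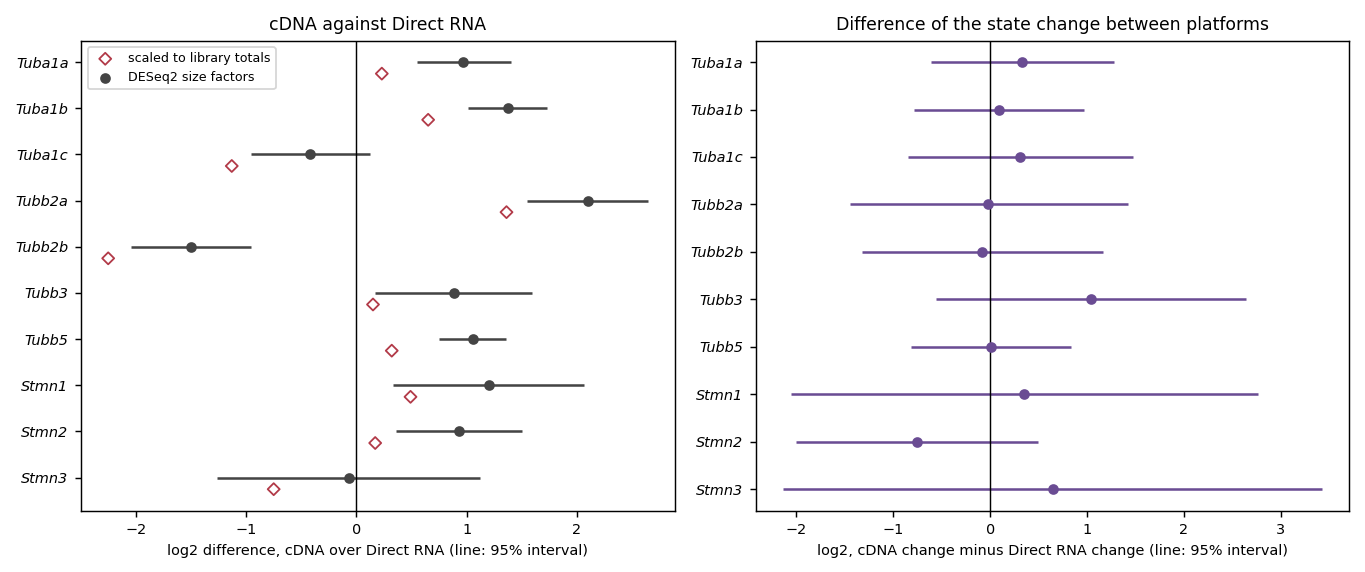
Left, log2 difference of each member between platforms, cDNA over Direct RNA, with DESeq2 size factors (filled points, 95% intervals) and with library totals (open diamonds); right, the difference of the state change between platforms, cDNA minus Direct RNA, with 95% intervals. Tubb2a lies at 2.10 and Tubb2b at -1.50 on the left, and every interval on the right holds 0.

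Whether the state change of a member differed between platforms was tested as an interaction of platform and state. No member passed in DESeq2 (0 of 10, with 0 at an unadjusted p of at most 0.05), and none in edgeR, beside 0.0116% of 17267 genes. The intervals were wide. For Stmn2 the cDNA change minus the Direct RNA change was -0.76 on the log2 scale (95% interval -2.00 to 0.49), for Tubb3 it was 1.04 (-0.56 to 2.64), and for Stmn3 0.65 (-2.14 to 3.43). The narrowest were those of the abundant genes, Tubb5 at 0.01 (-0.82 to 0.83) and Tuba1b at 0.09 (-0.79 to 0.97). The count of 0 is to be read with these intervals.

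Other genes of the microtubule system were taken from 7 lists of 95 genes: the remaining tubulins with Stmn4, the gamma-tubulin complex that nucleates microtubules, prefoldin, CCT and cofactors that fold tubulin, enzymes that modify tubulin, microtubule-associated proteins, plus-end proteins, and severing and depolymerising proteins. In Direct RNA 5 of them were lower and 6 higher at Day4 by the DEG criteria, of 79 with the minimum mean, and in cDNA 5 were lower and 4 higher of 76, against the percentages of all genes given above. The lists were drawn up with earlier results of these data known, so the counts are a description. They also moved with single libraries. In Direct RNA 3 and 2 of the genes were called without the first and the second Undiff library, and 4 and 5 without the first and the second Day4 library. In cDNA 5 and 3 were called without the first and the second Undiff library, and 4 and 3 without the first and the second Day4 library. The median log2 fold change of the listed genes of the minimum mean was -0.22 in Direct RNA and -0.17 in cDNA.

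Both platforms called 3 of these genes lower and 2 higher. Tuba4a, an alpha isotype whose gene does not encode the terminal tyrosine, was at 350 and 249 CPM in Direct RNA Undiff and 14.1 and 29.8 CPM at Day4, with a log2 fold change of -3.62 (SE 0.49, DESeq2 adjusted p = 2.7e-11). In cDNA it was near the floor, with 8 and 17 reads against 0 and 2 (DESeq2 adjusted p = 0.0429). Tubb4b, a widely expressed beta isotype, was at 1271 and 1336 CPM against 250 and 415 CPM in the Direct RNA libraries (-2.03 on the log2 scale, SE 0.31, DESeq2 adjusted p = 4.2e-09) and at 82.2 and 95.8 CPM against 18.2 and 17.3 CPM in cDNA (-2.58, SE 0.50, DESeq2 adjusted p = 1.2e-05). Every Day4 library was below every Undiff library of its platform for both of these isotypes. Pfdn6, a subunit of prefoldin, which hands new tubulin chains to the chaperonin, fell by 1.56 on the log2 scale in Direct RNA (DESeq2 adjusted p = 0.0145) and by 1.38 in cDNA (DESeq2 adjusted p = 0.00772). With 1 library left out Tubb4b was called in every fit on both platforms and Tuba4a in every fit in Direct RNA and none in cDNA. Pfdn6 was called in Direct RNA only without the second Day4 library (-2.42, against -1.03 without the first) and in cDNA only without the first Day4 library. For the gamma-tubulin complex DESeq2 called 0 genes on either platform, of 9 and 7 with the minimum mean, where 1 on each had an unadjusted p of at most 0.05 and edgeR called 1 on each. For the severing and depolymerising list it called 0 of 8 and 0 of 9, with 0 at an unadjusted p of at most 0.05 and 0 called by edgeR on each platform. The 5 genes of the tubulin folding list that edgeR called in Direct RNA, against 2 by DESeq2, show how far these counts depend on the tool.

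The 2 genes higher on both platforms encode partners in an enzyme that removes the terminal tyrosine of alpha-tubulin. Vash2, a catalytic subunit as is its relative Vash1, which was called on neither platform (DESeq2 adjusted p = 0.563 and 0.386), was at 2.87 and 5.51 CPM in Direct RNA Undiff and 77.6 and 36.6 CPM at Day4 (log2 fold change 3.13, SE 0.89, DESeq2 adjusted p = 0.00652), and at 8.43 and 4.79 CPM against 38.7 and 76.5 CPM in cDNA (2.69, SE 0.66, DESeq2 adjusted p = 0.00108). Its binding partner Svbp, listed in the tables under the older symbol Ccdc23, was at 43.0 and 43.0 CPM against 131 and 169 CPM in Direct RNA (1.66, SE 0.50, DESeq2 adjusted p = 0.0121), and at 67.5 and 82.8 CPM against 262 and 206 CPM in cDNA (1.31, SE 0.43, DESeq2 adjusted p = 0.0250). All Day4 libraries were above all Undiff libraries for both genes. With 1 library left out the log2 fold changes stayed positive, at 2.11 or more for Vash2 and 1.04 or more for Ccdc23, but Ccdc23 was called in no such fit on either platform, and Vash2 in none in Direct RNA and not in cDNA without the second Undiff or the second Day4 library. The DESeq2 calls on a single platform, named after their values were seen, were Cct6a and Map7 lower and Tubb4a, Sirt2, Map7d1 and Clip2 higher in Direct RNA, and Mapt and Clasp2 lower and Atat1 and Clip1 higher in cDNA. On the other platform edgeR called Cct6a, Map7, Tubb4a, Map7d1 and Clip1 in the same direction. It did not call Sirt2, Clip2, Mapt or Clasp2 there. In cDNA Clasp2 was at 59.0 and 6.70 CPM in Undiff and 5.31 and 7.22 CPM at Day4, so that the states overlapped and its call rests on the first Undiff library, without which the log2 fold change was -0.36. With 1 library left out, Tubb4a, Sirt2, Map7, Map7d1 and Clip2 were called in none of the Direct RNA fits and Clip1 in none of the cDNA fits, Cct6a was not called without the second Direct RNA Undiff library, and Atat1 was called in every cDNA fit. Mapt, the gene of the axonal protein tau, fell by 2.96 on the log2 scale in cDNA (SE 0.96, DESeq2 adjusted p = 0.0221), from 5.27 and 30.2 CPM to 1.52 and 2.89 CPM. With 1 library left out its log2 fold change ran from -3.62 to -1.20, the latter without the second Undiff library, and its call moved with single libraries. Atat1, which acetylates alpha-tubulin inside the microtubule, rose by 2.88 in cDNA (SE 0.54, DESeq2 adjusted p = 5.5e-06). In Direct RNA it was at 25.8 and 9.92 CPM in Undiff and 52.9 and 84.1 CPM at Day4, 1.84 on the log2 scale (DESeq2 adjusted p = 0.0798), and was called there by edgeR.

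For one member of each class, that with the largest mean change between states, the genes with the most similar pattern over the 8 libraries were found by Pearson correlation of log2(CPM + 10) among the 3792 genes that averaged 50 reads or more. The libraries share states and platforms, so the values are a description. For Stmn2 they were Hsd17b14 (r = 0.992), Tdgf1 (0.990), which is one of the pluripotency markers above, and Trh (0.989). Trh, the gene of thyrotropin-releasing hormone, was at 465 to 561 CPM in the Undiff libraries and 0 to 3.85 CPM at Day4. For Tubb3 they were Mif4gd (0.986), Trp53 (0.986), which encodes p53, and Pak1ip1 (0.979), and for Tuba1c Cndp2 (0.995), Pml (0.988) and Eif6 (0.988). Between members, Stmn2 and Tubb3 correlated at 0.922, Stmn2 and Tuba1a at -0.723, and Tubb2a and Tubb2b at -0.759.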

How the data were processed

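Polyadenylated RNA of R1 mouse cells was read on both platforms, with 2 replicates per state and platform. The authors aligned reads to mm10 with minimap2, without secondary alignments, and deposited counts of whole reads per gene made with HTSeq, strand-specific for Direct RNA. The strand setting of the cDNA counts is not given in the sources used here, so antisense reads cannot be told apart there. From the deposited counts, CPM and within-class shares were computed with Wilson 95% intervals, which like the 3-read floor cover counting error only. States (within each platform), platforms (with state as a term) and their interaction were fitted in DESeq2 1.42.0 with no independent filtering and Benjamini-Hochberg adjustment over all genes, with edgeR 4.0.16 as alternative. Fold changes were shrunken for states and platforms and not for the interaction. Intervals are 1.96 SE on each side. The main DESeq2 fits and the edgeR fits were also run on simulated data, and the other alternatives were not. Other alternatives were TMM factors, library totals (added after seeing the data), a minimum of 10 reads in every library, no shrinkage, a replicate block, and omission of each library. The members and gene lists were chosen with earlier results of these data known. Named genes were all members, up to 3 genes per list called in one direction on both platforms with the largest mean change, and the 3 genes most similar to 1 member per class. Of the 95 listed symbols 95 were found, 1 by a RefSeq synonym (GRCm38.p6). Sequences and coordinates are from GENCODE vM21, and look-alike transcripts were searched with BLAST. Replicates differed by more than sampling noise (chi-square per degree of freedom 2.68 to 14.9). Rows that name no gene, such as reads of low alignment quality (20.4 to 28.0% of aligned reads) and ambiguous reads (1.41 to 5.05%), were left out. Some sequences and 1 gene are not reported here.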

Additional observations from a re-analysis of the deposited data

How the results depend on the processing

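Depth limits the low genes, since Stmn1, Stmn3 and Tubb3 rest on 2 to 11 reads in the Direct RNA Day4 libraries. The members called between states numbered 4 in Direct RNA and 3 in cDNA. A minimum of 10 reads in every library left 1 in Direct RNA, by its own construction, and 1 of 5 between platforms (Tubb2b), where library totals gave 3, Tubb2a and Tubb2b of the 5 and Tuba1c. Leaving out 1 library each gave 2 to 3 and 1 to 4. The listed microtubule genes called in Direct RNA, 11, became 23 with edgeR, 7 with the filter and 2 to 5 with 1 library left out, and the 9 in cDNA became 19 with edgeR and 3 to 5. With a replicate block 3 and 3 members were called between states, 5 between platforms and 0 in the interaction, and 5 listed genes in Direct RNA. Among the genes named, the block cost Stmn3, Pfdn6, Vash2, Ccdc23, Tubb4a, Sirt2, Map7 and Clip2 their call in Direct RNA and Tuba4a, Mapt, Clasp2 and Clip1 theirs in cDNA. The study describes RNA of duplicate samples per state that was used for both platforms, so libraries of the 2 platforms may share cultures. The shared replicate numbers are not stated to mark shared cultures across states or platforms, and the deviations of same-numbered libraries correlated at 0.214 and 0.500 between states and at 0.124 in Undiff and -0.416 in Day4 between platforms. With the Day4 numbers crossed, 5 members were called between platforms. Signs turned only for values that were not called. With TMM factors Stmn3 between platforms was 0.00, and the interaction of Tubb2a was 0.08 with edgeR, 0.08 with TMM factors and 0.21 with library totals, that of Tubb2b 0.01, 0.02 and 0.09, and that of Tubb5 -0.01 with the replicate block. With 1 library left out, the state change of Tuba1a in Direct RNA ran from -0.32 to 0.52, of Tubb5 from -0.25 to 0.24 and in cDNA from -0.18 to 0.22, of Stmn3 in cDNA from -2.81 to 0.31, and the platform difference of Stmn3 from -0.84 to 0.43. The interactions ran from -0.16 to 0.34 (Tuba1b), -0.07 to 0.78 (Tuba1c), -0.19 to 0.22 (Tubb2a), -0.59 to 0.32 (Tubb2b), -0.21 to 0.24 (Tubb5) and -0.19 to 3.12 (Stmn3). The cause of these moves was not tested.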
